A study of Homo sapiens with 36 samples.

Results

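Of the 29 genes described here, most encode enzymes of cholesterol synthesis or parts of the sterol regulatory element-binding protein (SREBP) pathway that controls them. The other 6 are genes of sterol transport, storage and uptake (STARD4, NPC1, NPC2, SOAT1 and MYLIP) and a phosphatidate phosphatase (LPIN1). The 29 genes were taken by symbol from a list of pathway genes, and all were matched among the 57820 gene rows of a count table covering 12 conditions. The cells were A2780, a human ovarian cancer cell line, in 3 forms: the sensitive parental cells (wt), a platinum-resistant derivative obtained by chronic cisplatin exposure (cis), and cells that grew out of cis under serine/glycine deprivation and regained serine synthesis (cis SSP). Each form was cultured in complete medium or in medium without serine and glycine (-SG), and with or without carboplatin (carbo), a platinum drug that damages DNA. The labels give the dose as "6 M", evidently with a prefix lost, and untreated cells of each form served as controls. Each condition had 3 libraries, which were described as technical replicates of a cell line, so every p-value below covers only the spread between these libraries and not that between independent cultures or independently derived resistant lines. The series was made to compare resistant cells that had lost serine synthesis with sensitive ones and with resistant cells that had recovered it.

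Cells build cholesterol from acetyl-CoA through mevalonate and the isoprenoid diphosphates to squalene, and then through lanosterol and a series of sterol intermediates. The SREBP transcription factors drive these genes: when sterols are scarce, SCAP escorts the SREBP precursors from the endoplasmic reticulum to the Golgi, where they are cut and released to the nucleus, and when sterols are plentiful the INSIG proteins hold the complex back. The same pathway supplies membrane cholesterol to proliferating cancer cells, as well as the farnesyl and geranylgeranyl groups attached to proteins.

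The libraries held between 13074937 and 20441582 counts on genes. Levels are given as CPM, the counts of a gene scaled to the counts on all genes of a library. These totals were first adjusted between all libraries by the scaling factors of edgeR (TMM). Differences are given as log2 fold changes. Members were called at an adjusted p under 0.05 in the quasi-likelihood test of edgeR, with p-values adjusted over all genes tested by the Benjamini-Hochberg method. A value after ± beside a log2 fold change is its standard error (SE). Libraries 25 (the first of cis SSP) and 32 (the second of cis SSP -SG) stood apart from their group: the mean chi-square over genes was 103 to 123 in the 4 pairs that held one of them, 24.6 to 25.6 in the 2 pairs with library 11 of wt -SG carbo, and 1.20 to 13.6 in the other 30 pairs. The number of members called in each cis SSP comparison is therefore given with and without libraries 25 and 32. Values of single genes in these comparisons are for all libraries unless stated, and some change without the 2. In all comparisons, most genes given with a value for each library were chosen among those whose groups did not overlap. Where a lack of overlap is stated for them, it is a description and no further evidence. PHGDH, the first enzyme of serine synthesis, stood at 473 CPM in wt, 153 in cis and 313 in cis SSP. In cis SSP it was at 391.3 CPM in library 25 against 268.5 and 278.8 in the others. The epithelial and Müllerian markers PAX8, WT1, MUC16, EPCAM and CDH1 reached at most 1.64 CPM in any condition, and the immune and endothelial markers CD14, CD3E, PTPRC, VWF and CDH5 at most 0.26. The keratins, which also mark epithelial cells, differed between the forms: KRT18 was 0.614 CPM in wt, 5.04 in wt carbo, 17.3 in cis, 43.1 in cis -SG and 10.4 in cis SSP, and KRT8 ran up to 6.02 in wt -SG carbo. Of the fibroblast markers, COL1A1 was 163 CPM in wt, 855 in wt carbo and 4.07 in cis, and DCN was 24.3 in cis SSP and at most 0.73 in every wt and cis condition. The part of such differences in cell state in the results below was not tested.

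In wt cells in complete medium, the members spanned a wide range of levels. Per kilobase of annotated exon, FDFT1, the squalene synthase that commits farnesyl diphosphate to sterols, was the most abundant at 71.7 CPM per kb, followed by FDPS, the farnesyl diphosphate synthase, at 68.8, STARD4, a cytosolic sterol carrier, at 50.1, and SREBF2, which encodes the SREBP that acts mainly on cholesterol genes, at 47.6. IDI1, the isopentenyl diphosphate isomerase, and HMGCS1, the HMG-CoA synthase, followed at 45.4 and 44.7. At the lower end were the sterol enzymes HSD17B7 (4.05), SC5D (3.46) and CYP51A1 (2.85) and the mevalonate kinase MVK (3.88). MYLIP, a ubiquitin ligase that removes lipoprotein receptors and is induced by sterol-activated nuclear receptors, was at 0.0528 CPM per kb, which rested on 2 to 4 counts per library. Of the 29 members, 18 share exonic bases with another annotated gene and 4 (IDI1, FDPS, CYP51A1 and HSD17B7) have annotated pseudogenes, and with the strand setting of the counting not given in the sources used here their levels are less certain than the others.

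The promoters of a few members that the results turn on are shown here, since SREBPs bind sterol regulatory elements together with the factor NF-Y, which recognises the letters CCAAT. The promoter table from RefSeq (GRCh38.p14) held 26 of the 29 members. The 250 bases upstream of the annotated start were searched on both strands for CCAAT (NF-Y box), TCACNCCAC (a strict form of the sterol regulatory element) and CACGTG (E-box). CCAAT was present in 22 of 36 member windows (61.1%), against 32.01% of 35116 windows of all genes, and at least 1 window held it in 20 of the 26 members. TCACNCCAC occurred in 1 member window, that of SREBF2, against 0.883% of all windows, and CACGTG in 4 of the 36 (11.1%), those of INSIG1, SC5D and SCAP, against 6.35%. The windows of HSD17B7, EBP, FDPS and INSIG1 are given because these genes were among those with the largest decreases in deprived cis cells, that of STARD4 because its level distinguished cis SSP cells, and that of SREBF2 because it held the sterol element. Capitals mark the matched letters, ATTGG being CCAAT on the other strand. A match is a description of the sequence and does not show binding.
HSD17B7 (chr1:162790452-162790701, plus strand), EBP (chrX:48521558-48521807, plus strand), FDPS (chr1:155308616-155308865, plus strand), INSIG1 (chr7:155297628-155297877, plus strand), STARD4 (chr5:111512536-111512785, minus strand) and SREBF2 (chr22:41832855-41833104, plus strand) read, 5′ to 3′:
HSD17B7: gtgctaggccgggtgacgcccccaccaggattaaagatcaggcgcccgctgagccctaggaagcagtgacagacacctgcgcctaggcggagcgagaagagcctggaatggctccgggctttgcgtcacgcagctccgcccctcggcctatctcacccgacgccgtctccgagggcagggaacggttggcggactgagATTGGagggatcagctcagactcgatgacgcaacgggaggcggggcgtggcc
EBP: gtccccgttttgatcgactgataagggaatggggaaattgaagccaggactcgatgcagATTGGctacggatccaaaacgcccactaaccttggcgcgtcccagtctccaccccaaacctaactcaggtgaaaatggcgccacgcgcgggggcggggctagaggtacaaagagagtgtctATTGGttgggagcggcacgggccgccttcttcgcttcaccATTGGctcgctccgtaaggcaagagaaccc
FDPS: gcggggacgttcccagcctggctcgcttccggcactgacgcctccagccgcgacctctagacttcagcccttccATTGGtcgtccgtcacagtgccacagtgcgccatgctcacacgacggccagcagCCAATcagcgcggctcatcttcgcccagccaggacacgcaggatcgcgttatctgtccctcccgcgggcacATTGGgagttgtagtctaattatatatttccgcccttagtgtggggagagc
INSIG1: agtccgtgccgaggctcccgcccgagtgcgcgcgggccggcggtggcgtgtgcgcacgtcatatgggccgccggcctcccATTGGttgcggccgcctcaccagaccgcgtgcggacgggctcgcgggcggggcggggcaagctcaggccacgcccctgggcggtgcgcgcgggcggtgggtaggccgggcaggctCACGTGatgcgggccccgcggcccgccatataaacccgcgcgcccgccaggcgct
STARD4: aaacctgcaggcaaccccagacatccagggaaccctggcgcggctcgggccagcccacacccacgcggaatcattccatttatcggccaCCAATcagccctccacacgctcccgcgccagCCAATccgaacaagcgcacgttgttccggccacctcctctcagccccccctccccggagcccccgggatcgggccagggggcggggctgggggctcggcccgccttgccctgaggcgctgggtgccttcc
SREBF2: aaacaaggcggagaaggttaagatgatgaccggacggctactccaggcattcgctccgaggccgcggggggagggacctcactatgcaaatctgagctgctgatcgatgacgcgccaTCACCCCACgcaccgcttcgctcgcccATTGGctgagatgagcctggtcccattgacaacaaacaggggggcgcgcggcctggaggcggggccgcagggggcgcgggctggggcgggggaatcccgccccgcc
FDPS and EBP each held 3 CCAAT boxes in this window, STARD4 held 2, and HSD17B7, INSIG1 and SREBF2 held 1. The CACGTG of INSIG1 lies closer to the start than its CCAAT box, and the sterol element of SREBF2 lies upstream of its CCAAT box.

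Serine/glycine deprivation lowered the pathway in both wt and cis cells, and by more in cis cells. In cis cells 25 of 29 members fell and 2 rose, against 37.4% of all genes tested that fell and 37.6% that rose. Of the members, 14 fell at least 2-fold, against 4.45% of all genes. The median log2 fold change of the members was -0.96, against 0.01 over all genes tested. All 11 genes from squalene to cholesterol fell, as did 7 of the 8 of the mevalonate arm.

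The summed CPM of the 8 mevalonate-arm genes was 681, 672 and 692 in the cis libraries in complete medium and 279, 288 and 292 without serine and glycine. For the 11 genes from squalene to cholesterol the sums were 1168, 1169 and 1182 and 484, 501 and 481. In wt cells the same sums went from 1049, 1042 and 1041 to 728, 715 and 716 and from 1070, 1104 and 1073 to 917, 916 and 902. In both forms, and for both sums, every deprived library lay below every library in complete medium.

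**Figure D1:**
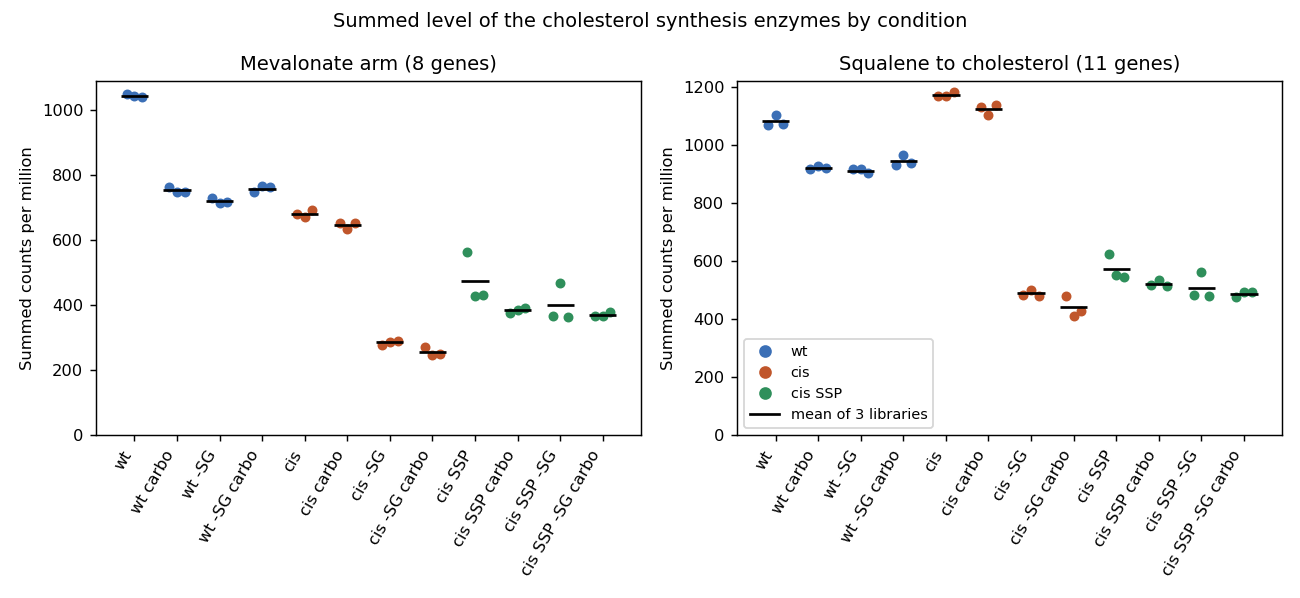
Summed level of the 8 genes of the mevalonate arm (left) and the 11 genes from squalene to cholesterol (right), in CPM, with a point for each library and a bar for the mean of the 3 libraries of a condition. The cis -SG libraries, at 279 to 292 and 481 to 501, and the cis SSP libraries, at 364 to 562.2 and 476 to 625, all lie below every wt library.

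Of the mevalonate-arm genes, ACAT2, the cytosolic thiolase that makes acetoacetyl-CoA, fell most in cis cells, from 64.9, 66.3 and 70.4 CPM to 10.2, 11.7 and 10.7, a log2 fold change of -2.60 ± 0.061, adjusted p = 1.11e-35, by edgeR's quasi-likelihood test. The gene TCP1, whose exons overlap those of ACAT2 on the opposite strand, changed by -0.69 in the same comparison. FDPS went from 199, 192 and 205 to 52.9, 48.6 and 54.9 CPM (-1.90 ± 0.040). HMGCS1 went from 136, 128 and 135 to 56.7, 56.2 and 58.8 CPM (-1.19 ± 0.039, adjusted p = 5.18e-30). No deprived library of these genes overlapped a library in complete medium. MVD, IDI1, MVK and PMVK, the decarboxylase, the isomerase and the 2 kinases of the arm, fell too, with log2 fold changes of -1.87, -1.83, -1.75 and -0.49. GGPS1, which makes the geranylgeranyl diphosphate of protein prenylation and so leads away from sterols, rose instead, from 65.1, 66.1 and 65.9 to 88.1, 97.7 and 89.2 CPM (0.51 ± 0.041, adjusted p = 2.43e-15).

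Among the sterol enzymes, HSD17B7, a keto-reductase of sterol demethylation, went from 14.6, 15.1 and 16.5 CPM to 2.78, 2.74 and 2.21 (-2.55 ± 0.12, adjusted p = 3.21e-24). EBP, the isomerase that moves the sterol double bond, went from 12.4, 12.7 and 12.97 to 3.26, 2.90 and 1.84 CPM (-2.22 ± 0.13, adjusted p = 3.94e-20). Both were low in deprived cells, with a mean of 48.3 and 50 counts per library. Groups without overlap were a condition for giving their values. SQLE, the squalene epoxidase and a rate-limiting step, went from 269, 264 and 272 to 133, 138 and 134 CPM (-0.96 ± 0.030, adjusted p = 1.54e-30). The other members of the branch also fell, with log2 fold changes of -1.73 (DHCR7, the last reductase), -1.63 (MSMO1, the methylsterol oxidase), -1.43 (NSDHL, a sterol dehydrogenase), -1.23 (FDFT1), -1.19 (LSS, the lanosterol synthase), -0.87 (CYP51A1, the lanosterol demethylase), -0.78 (TM7SF2, a sterol reductase) and -0.32 (SC5D, a sterol desaturase).

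The regulators did not move as 1 group. INSIG1, the retention factor whose own transcription depends on SREBP, went from 104, 102 and 106 CPM to 20.2, 21.1 and 19.8 (-2.33 ± 0.048, adjusted p = 5.57e-38). SREBF2 went from 271, 277 and 289 to 205, 212 and 203 CPM (-0.40 ± 0.030, adjusted p = 1.49e-16). SREBF1, which encodes the SREBP forms that act mainly on fatty acid genes, was at 142, 142 and 129 and 134, 131 and 137 CPM, groups that overlapped (-0.01 ± 0.036, adjusted p = 0.885). SCAP, the escort protein, fell with a log2 fold change of -0.26. Of the transport and storage genes, SOAT1, which esterifies cholesterol for storage, NPC2, a lysosomal cholesterol carrier, LPIN1, a phosphatidate phosphatase, and STARD4 fell, with log2 fold changes of -0.72, -0.55, -0.40 and -0.18. MYLIP rose from 9.04, 7.03 and 8.91 to 15.1, 13.7 and 13.4 CPM (0.79 ± 0.095, adjusted p = 4.33e-10). NPC1, the membrane partner of NPC2 in cholesterol export from lysosomes, was at 113, 112 and 112 and 112, 119.6 and 108 CPM and was not called (0.04 ± 0.036).

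In wt cells, deprivation lowered 20 of the 28 members tested and raised 3, against 25.1% and 24.1% of all genes. The changes were smaller than in cis cells, with a median of -0.38 and none at least 2-fold. HSD17B7 went from 18.98, 20.03 and 19.1 to 10.3, 11.1 and 9.96 CPM (-0.88 ± 0.074, adjusted p = 5.49e-09). HMGCS1 went from 299, 298 and 291 to 184, 183 and 186 CPM (-0.67 ± 0.026, adjusted p = 4.16e-14). NSDHL went from 12.1, 14.3 and 12.9 to 9.72, 7.79 and 7.20 CPM (-0.64 ± 0.10). Each of the 3 fell without overlap between its groups. PMVK, the phosphomevalonate kinase, fell from 38.9, 42.8 and 38.7 to 26.8, 25.3 and 26.03 CPM (-0.61 ± 0.054). INSIG1 went from 140.1, 141 and 138 to 93.4, 97.7 and 99.5 CPM (-0.52 ± 0.033), and SQLE from 164, 164 and 162 to 126, 127 and 125 (-0.36 ± 0.029). SREBF2 rose, from 374, 393 and 384 to 444, 448 and 437 CPM (0.22 ± 0.023, adjusted p = 1.19e-07), whereas it fell in cis cells. NPC2 and NPC1 rose by 0.21 and 0.13, and SREBF1, at 183, 186 and 185 and 172, 192 and 195 CPM, was not called (0.03 ± 0.039). LSS, SOAT1, SCAP and LPIN1 were not called either, and MYLIP was not tested because of its low counts.

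The difference between the forms in this response was tested as an interaction of cell form and deprivation in the 4 conditions. For 22 members the log2 fold change was lower in cis than in wt cells and for 2 it was higher, against 26.9% and 27.1% of all genes, and 12 members were lower by at least 2-fold, against 3.48%. The median difference was -0.72. ACAT2 differed most, at -2.01 ± 0.076, adjusted p = 5.85e-23, followed by INSIG1 at -1.79 ± 0.055, EBP at -1.69 ± 0.16 and HSD17B7 at -1.66 ± 0.14. SREBF2 differed by -0.61 ± 0.038, SQLE by -0.59 ± 0.040 and HMGCS1 by -0.50 ± 0.044. The opposite held for GGPS1 (0.63 ± 0.054) and STARD4 (0.30 ± 0.042). No difference was called for NPC1, SREBF1, SC5D and PMVK, and that of SREBF1 was -0.02 ± 0.060. MYLIP entered the fit through its level in cis cells, and its counts in wt cells were too low to show a difference.

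In cis SSP cells, 0 of 29 members were called between deprived and complete medium by edgeR's quasi-likelihood test, against 0.0218% of all genes that were higher and 0% that were lower. DESeq2 called 0 as well, and 5 members had an unadjusted p under 0.05. Both libraries that stood apart belong to this comparison, and leaving out either of them alone still gave 0 calls. Without both, 18 members fell and 4 rose, against 17% and 18.9% of all genes, with a median of -0.24. INSIG1 was at 59.7, 58.04 and 59.4 CPM in complete medium and 37.3, 45.3 and 36.2 when deprived, the values at the first and second place respectively being those of libraries 25 and 32, and differed by -0.59 ± 0.13 in all libraries and by -0.68 ± 0.055, adjusted p = 8.99e-11 without them. MVD, the mevalonate diphosphate decarboxylase, changed by -0.71 ± 0.10 without them and HMGCS1 by -0.34 ± 0.051, while SREBF2 rose by 0.26 ± 0.031 and NPC1 by 0.30 ± 0.050. SQLE, at 91.4, 84.8 and 86.8 and 83.6, 87.9 and 80.5 CPM, and SREBF1, at 204, 195 and 195 and 183, 211 and 196, were called in neither fit.

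The response to deprivation also differed between cis SSP and cis cells. The cis SSP cells had grown out in medium without serine and glycine, a history that cis cells lacked, and its part in the difference was not tested. The interaction was positive, which means a log2 fold change higher in cis SSP than in cis cells, for 17 members, and negative for MYLIP alone, against 6.86% and 10.3% of all genes. It was at least 2-fold for 11 of the members, against 2.18%. ACAT2 (2.15 ± 0.23, adjusted p = 0.000244), HSD17B7 (2.04 ± 0.22), EBP (1.82 ± 0.38) and INSIG1 (1.75 ± 0.14) differed most, HMGCS1 differed by 0.84 ± 0.19, SQLE by 0.90 ± 0.11, and SREBF2 by 0.66 ± 0.17. Most of the 17 had log2 fold changes below 0 in both forms and nearer to 0 in cis SSP, but SREBF2 and SC5D, which fell in cis cells, had positive log2 fold changes in cis SSP cells and were called higher there without libraries 25 and 32. Without libraries 25 and 32 the interaction was positive for 24 members and negative for 3, against 28.8% and 26.6%, and ACAT2 differed by 2.17 ± 0.10. These comparisons and the one between wt and cis share the cis libraries.

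**Figure D2:**
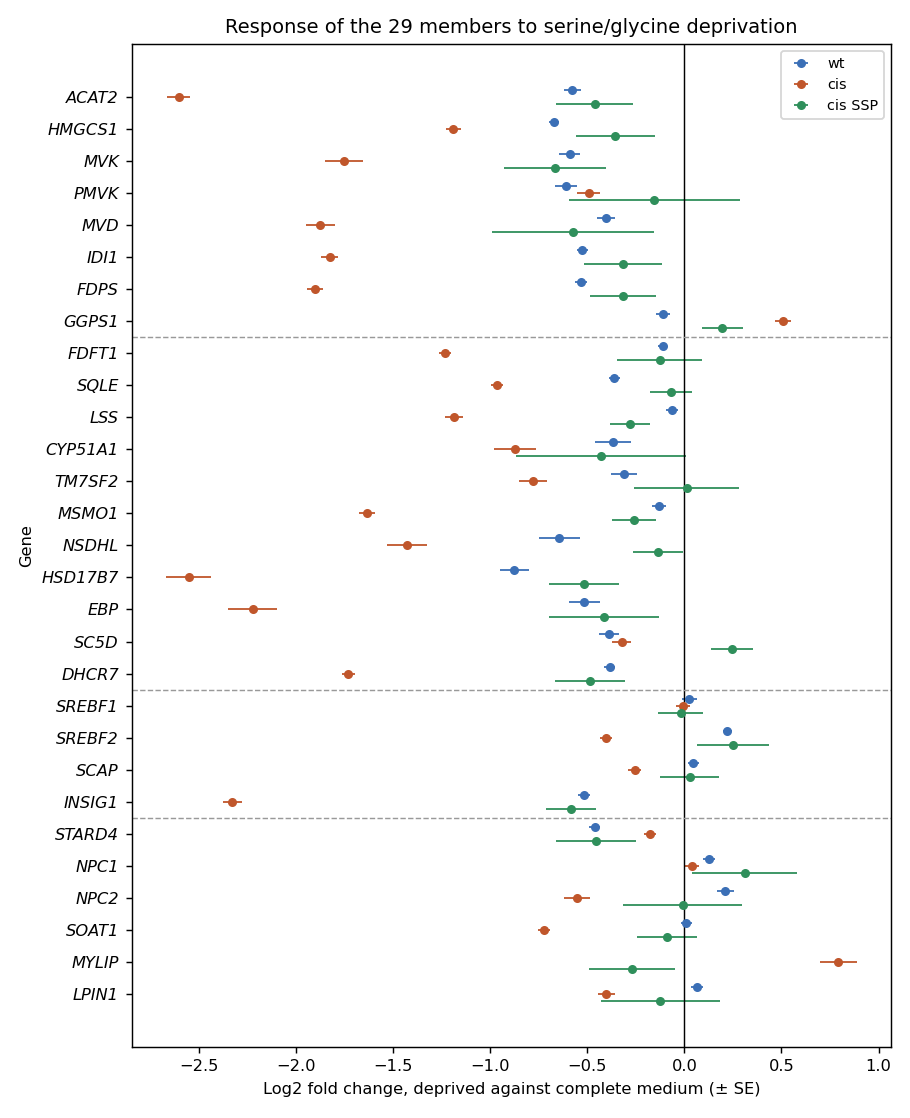
Log2 fold change of each member between deprived and complete medium in wt, cis and cis SSP cells, with all libraries, error bars of ± 1 SE and dashed lines between the mevalonate arm, the sterol enzymes, the SREBP regulators and the other genes. The cis points reach -2.60 for ACAT2, the wt points lie between -0.88 and 0.22, and the wide bars of cis SSP come from a comparison that holds libraries 25 and 32.

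Carboplatin in complete medium lowered most members in wt cells and few in cis cells. In wt cells 21 of the 28 members tested fell and 4 rose, against 39% and 38.9% of all genes, so that the share that fell was above that of all genes. The members that fell at least 2-fold were 4, against 8.54% of all genes, and the median was -0.35. EBP went from 14.1, 14.2 and 14.2 CPM to 5.20, 4.83 and 4.13 (-1.56 ± 0.10, adjusted p = 1.09e-45). INSIG1 went from 140.1, 141 and 138 to 47.3, 48.6 and 46.9 CPM (-1.54 ± 0.034, adjusted p = 7.04e-222). LSS went from 104, 109 and 106 to 37.8, 40.5 and 37.4 CPM (-1.45 ± 0.038). For these 3 genes every treated library lay below every untreated one. MVK fell from 34.8, 35.6 and 34.7 to 13.5, 12.98 and 14.6 CPM (-1.34 ± 0.063), and FDPS and STARD4 fell with log2 fold changes of -0.82 and -0.77.

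SQLE moved against this direction in wt cells, from 164, 164 and 162 to 219, 224 and 224 CPM (0.46 ± 0.024, adjusted p = 2.55e-65), and NPC1 rose from 103, 104 and 100.2 to 123, 120.4 and 122 (0.27 ± 0.029). NSDHL and TM7SF2 rose by 0.22 and 0.16. HMGCS1, at 299, 298 and 291 and 293, 288 and 282 CPM, MSMO1 and SCAP were not called. SREBF1 fell from 183, 186 and 185 to 142, 142 and 135 CPM (-0.39 ± 0.026), and SREBF2 from 374, 393 and 384 to 347, 354 and 348 (-0.12 ± 0.020). SQLE and LSS, which acts on the product of SQLE, thus moved in opposite directions.

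In cis cells carboplatin lowered 4 members (LSS, INSIG1, SREBF1 and HMGCS1) and raised 3 (MYLIP, NPC1 and STARD4), against 10.8% and 9.27% of all genes, shares close to those of the members. LSS went from 75.9, 80.4 and 78.2 to 56.1, 53.7 and 54.7 CPM (-0.48 ± 0.042, adjusted p = 7.2e-10). INSIG1 went from 104, 102 and 106 to 86.2, 83.5 and 86.8 CPM (-0.26 ± 0.036), and SREBF1 from 142, 142 and 129 to 108, 118 and 114 (-0.24 ± 0.044). HMGCS1 went from 136, 128 and 135 to 118, 113 and 119 CPM (-0.16 ± 0.034). These 4 changes were under 1.5-fold. MYLIP (0.32 ± 0.11), NPC1 (0.18 ± 0.033) and STARD4 (0.11 ± 0.031) rose. SQLE, at 269, 264 and 272 and 259, 248 and 262 CPM, and SREBF2, at 271, 277 and 289 and 270.3, 268 and 268, were not called. DESeq2 called 4 members lower and 1 higher. The interaction of cell form and carboplatin was positive, a log2 fold change higher in cis than in wt cells, for 20 members and negative for 2 (SQLE and HMGCS1), against 30.3% and 27.2% of all genes. MYLIP, which was not called, entered this fit only through its level in cis cells. EBP (1.45 ± 0.13, adjusted p = 2.56e-14), INSIG1 (1.29 ± 0.048), MVK (1.21 ± 0.098) and LSS (0.97 ± 0.058) differed most, and SQLE differed by -0.49 ± 0.036.

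In cis SSP cells carboplatin lowered INSIG1, LSS and SREBF1 and raised no member, against 0.749% and 1.97% of all genes. INSIG1 went from 59.7, 58.04 and 59.4 to 31.9, 34.7 and 31.9 CPM (-0.85 ± 0.089, adjusted p = 0.00943). LSS went from 73.5, 72.3 and 73.5 to 45.7, 45.1 and 47.5 CPM (-0.67 ± 0.085). SREBF1 went from 204, 195 and 195 to 132, 132 and 123 CPM (-0.62 ± 0.090). The first value of each untreated group is that of library 25. The count of 3 became 17 without library 25 and 0 without any other single library of either group. Without libraries 25 and 32, 12 members fell and 5 rose, against 19.2% and 21.9%, MVK among the former (-0.63 ± 0.10) and TM7SF2 among the latter (0.54 ± 0.075). INSIG1, LSS and SREBF1 were called lower under carboplatin in wt, cis and cis SSP cells alike, and SQLE, at 91.4, 84.8 and 86.8 and 84.2, 89.8 and 85.4 CPM, was not called in cis SSP cells.

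**Figure D3:**
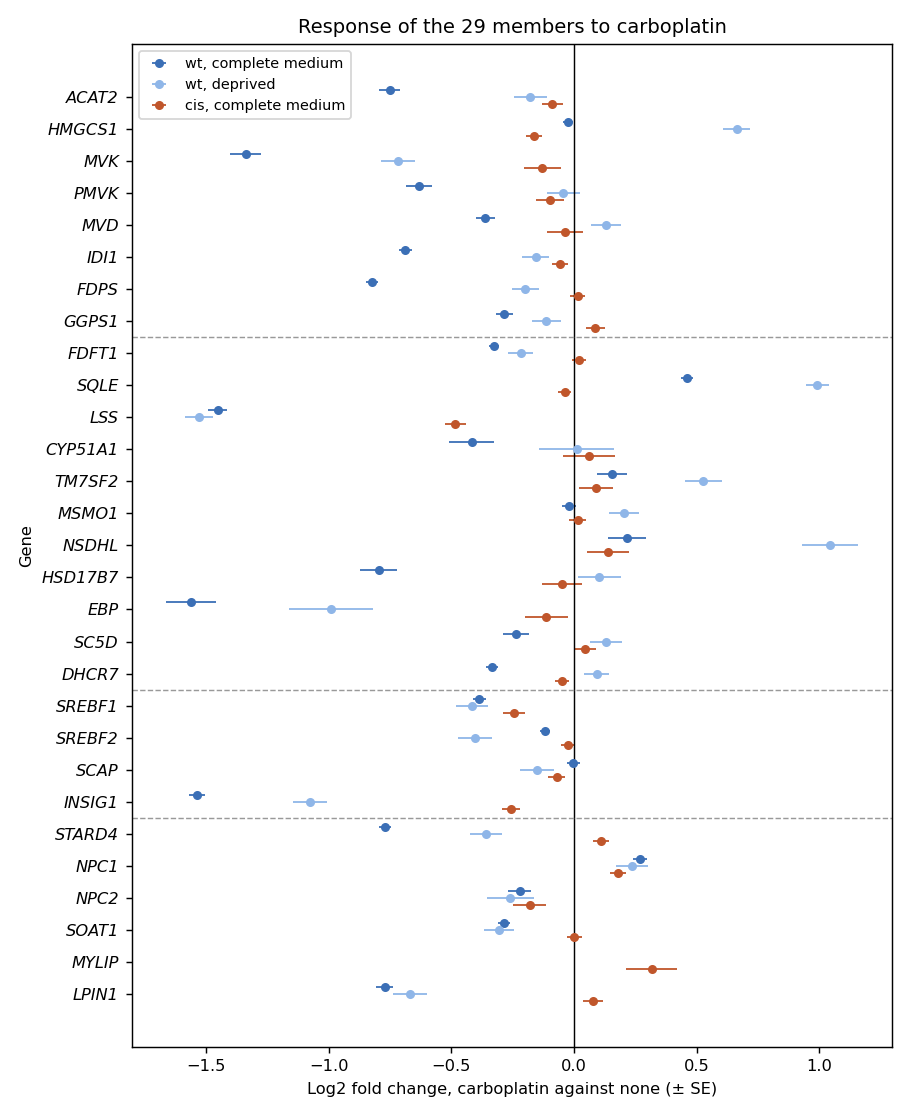
Log2 fold change of each member between carboplatin and no carboplatin in wt cells in complete medium, wt cells without serine and glycine, and cis cells in complete medium, with error bars of ± 1 SE. EBP, INSIG1 and LSS lie between -1.56 and -1.45 in wt cells in complete medium, SQLE lies at 0.46 and 0.99 in the 2 wt comparisons, and the cis points lie between -0.48 and 0.32.

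In deprived wt cells carboplatin lowered 14 members and raised 6, against 34.6% and 34.3% of all genes. The largest increases were those of NSDHL, from 9.72, 7.79 and 7.20 to 16.3, 16.5 and 17.4 CPM (1.04 ± 0.11, adjusted p = 2.72e-05), and SQLE, from 126, 127 and 125 to 244, 246 and 246 (0.99 ± 0.048, adjusted p = 1.32e-07). HMGCS1 rose from 184, 183 and 186 to 287, 271 and 299 CPM (0.66 ± 0.055), near the 291 to 299 CPM of untreated cells in complete medium, and TM7SF2 by 0.53. LSS fell from 101, 101 and 102 to 34.9, 32.6 and 35.5 CPM (-1.53 ± 0.057) and INSIG1 from 93.4, 97.7 and 99.5 to 46.9, 47.02 and 40.9 (-1.08 ± 0.068). EBP, MVK, SREBF1 and SREBF2 fell as well, with log2 fold changes of -0.99, -0.72, -0.42 and -0.40. The second value of the treated group is that of library 11, which was the lowest for HMGCS1 and STARD4 and the highest for EBP, and 21 members were called without it against 20 with it. The interaction of deprivation and carboplatin in wt cells was positive for 17 members and negative for SREBF2 alone, against 14.6% and 13.1% of all genes. HSD17B7 (0.89 ± 0.11, adjusted p = 2.83e-05), NSDHL (0.82 ± 0.14), HMGCS1 (0.68 ± 0.056) and FDPS (0.62 ± 0.059) differed most, SQLE differed by 0.52 ± 0.050, INSIG1 by 0.45 ± 0.073 and SREBF2 by -0.29 ± 0.071. Deprivation and carboplatin therefore did not add up on the log2 scale for these genes: for HSD17B7 the means were 19.4 CPM in untreated cells, 11.04 with carboplatin, 10.4 when deprived and 10.99 with both.

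In deprived cis cells carboplatin raised STARD4 from 228, 229.7 and 224 to 312, 278 and 293 CPM (0.46 ± 0.028, adjusted p = 7.46e-07), NPC2 by 0.36 and LPIN1 by 0.31 on the log2 scale. It lowered ACAT2 (-0.33 ± 0.10) and SQLE, from 133, 138 and 134 to 126, 106 and 104 CPM (-0.18 ± 0.042). These 3 and 2 members compare with 10.9% and 11.6% of all genes, and neither share of the members was above that of all genes. The last 2 libraries of the treated group are 23 and 24, in which 17.9% and 14.9% of the reads fell on no annotated feature, against at most 9.31% elsewhere. Without them 4 members were higher and 1 lower, in a fit where library 22 alone stands for the treated group and is assumed to vary like the untreated one. The count of 5 became 8 without library 22, the first of cis -SG carbo, and 3 without the second library of cis -SG. The interaction of deprivation and carboplatin in cis cells was positive for NPC2 (0.55 ± 0.10, adjusted p = 0.000586), LSS (0.48 ± 0.066), STARD4 (0.36 ± 0.045) and LPIN1 (0.24 ± 0.065) and negative for no member, against 5.91% and 6.17% of all genes, and 10 members had an unadjusted p under 0.05. The count of 4 became 9 without library 22. In deprived cis SSP cells 0 members were called by edgeR's quasi-likelihood test and 2 by DESeq2, with 6 at an unadjusted p under 0.05, against 1.17% higher and 0.295% lower of all genes. Without libraries 25 and 32, 8 members rose and 4 fell, against 21.1% and 19.9%, with TM7SF2 (0.52 ± 0.075) and LSS (-0.48 ± 0.051) at the ends, and without library 32 alone 12 members were called.

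**Figure D4:**
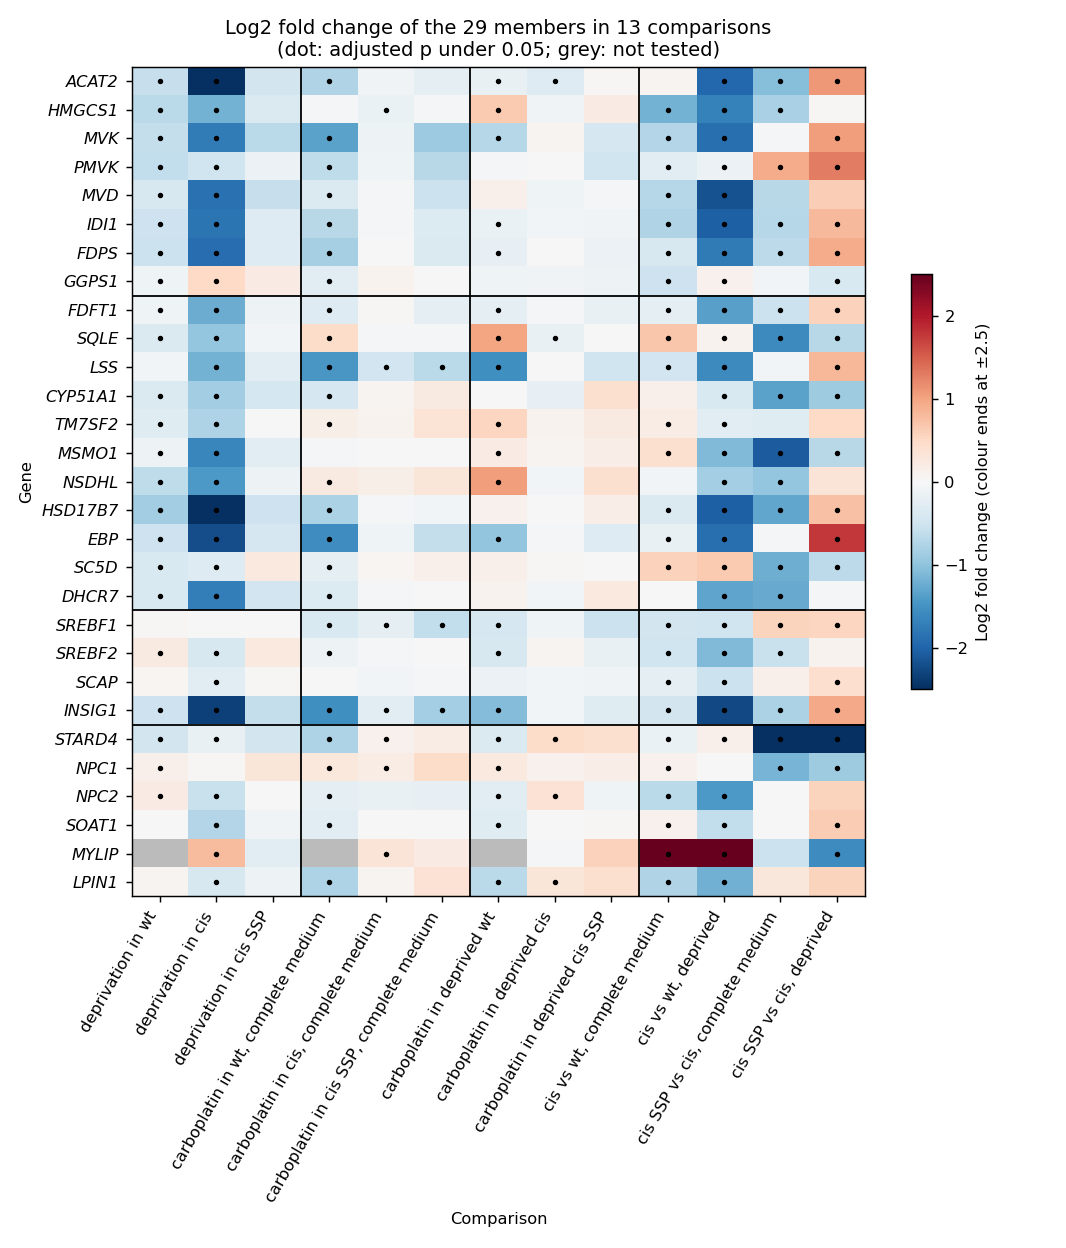
Log2 fold change of the 29 members (rows, in the order of the pathway) in the 13 comparisons between a pair of conditions (columns), from blue for lower to red for higher, with the colour ending at ± 2.5, a dot where the adjusted p is under 0.05 and grey where a gene was not tested. The columns for deprivation in cis and for cis against wt in deprived medium hold dots in 27 and 28 rows, and those for deprivation and for carboplatin in deprived medium in cis SSP hold none.

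Between the cell forms in complete medium, cis cells had a lower mevalonate arm than wt cells and a mixed sterol branch. Of the 29 members 18 were lower and 7 higher in cis, against 39.1% and 39.4% of all genes, and the median was -0.25. MYLIP, among the 7, passed the count filter only through its level in cis cells, which fixed its call. In the mevalonate arm 7 of 8 genes were lower and none higher, while from squalene to cholesterol 4 were lower and 4 higher. HMGCS1 was at 299, 298 and 291 CPM in wt and 136, 128 and 135 in cis cells (-1.19 ± 0.028, adjusted p = 1.65e-35). IDI1 was at 194, 195 and 195 and 117, 118 and 121 CPM (-0.75 ± 0.028). SQLE was higher in cis cells, at 269, 264 and 272 CPM against 164, 164 and 162 (0.69 ± 0.026, adjusted p = 5.17e-27). None of the groups of these 3 genes overlapped. LPIN1 (-0.75) and MVK (-0.73) were also among the genes most below wt, and SC5D (0.58) and MSMO1 (0.40) among those above it. The 4 regulators were all lower in cis cells, with log2 fold changes of -0.49 ± 0.025 for SREBF2, -0.46 ± 0.032 for SREBF1, -0.46 ± 0.031 for INSIG1 and -0.24 ± 0.031 for SCAP. DHCR7, ACAT2, NSDHL and CYP51A1 were not called.

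MYLIP was almost silent in wt cells and present in cis cells. Its 3 libraries held 2 to 4 counts each in wt and 130 to 158 in cis. The ratio of the summed counts, each divided by the summed unadjusted totals on genes, was 49.4, with an exact 95% counting interval of 25.8 to 109. In deprived medium they held 1 to 9 and 250 to 288 counts, a ratio of 65.4 (interval 37.2 to 127). These intervals cover counting error only. The level in cis SSP cells was between the other 2, at 4.67, 5.74 and 6.52 CPM against 9.04, 7.03 and 8.91 in cis cells, and was not called different from cis in complete medium with all libraries (-0.53 ± 0.18), but was called lower without libraries 25 and 32 (-0.39 ± 0.13, adjusted p = 0.0102).

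In deprived medium the distance between cis and wt cells was larger, a difference that the interaction of cell form and deprivation tests, and 23 of 29 members were lower in cis and 5 higher, against 40.3% and 40.8% of all genes, and 16 were lower by at least 2-fold, against 15.8%. The median was -1.11. MYLIP, among the 5 higher, again passed the count filter only through its level in cis cells. INSIG1 was at 93.4, 97.7 and 99.5 CPM in wt -SG and 20.2, 21.1 and 19.8 in cis -SG (-2.26 ± 0.047, adjusted p = 4.45e-20). MVD was at 48.6, 50.4 and 55.3 and 10.9, 11.4 and 11.98 CPM (-2.18 ± 0.065), IDI1 at 136, 132 and 134 and 31.8, 32.8 and 33.8 (-2.04 ± 0.040), and HSD17B7 at 10.3, 11.1 and 9.96 and 2.78, 2.74 and 2.21 (-2.03 ± 0.12). Each deprived cis library lay below each deprived wt library in these 4 genes. HMGCS1 (-1.70 ± 0.035), SREBF2 (-1.11 ± 0.027) and SREBF1 (-0.49 ± 0.042) were lower too. SQLE was slightly higher in cis, at 126, 127 and 125 CPM in wt -SG and 133, 138 and 134 in cis -SG (0.09 ± 0.031, adjusted p = 0.0152). SC5D, STARD4 and GGPS1 were higher in cis by 0.65, 0.13 and 0.11. NPC1 was the member not called.

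cis SSP cells in complete medium had lower sterol enzymes than the cis cells they grew out of. With all libraries 16 members were lower and 2 higher, against 13.3% and 15.8% of all genes, and 9 were lower by at least 2-fold, against 5.16%. Without libraries 25 and 32, 22 were lower and 4 higher, against 32.5% and 32.9%, and 8 were lower by at least 2-fold, against 5.3%. Leaving out the third library of cis took the count of called members from 18 to 11. Of the 11 genes from squalene to cholesterol 8 were lower with all libraries.

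STARD4 differed most, at 271, 248 and 266 CPM in cis and 24.5, 33.4 and 36.2 in cis SSP cells (-3.03 ± 0.18, adjusted p = 0.000145), and -2.87 ± 0.047 without the 2 libraries. In deprived medium it was at 228, 229.7 and 224 and 26.4, 19.1 and 23.6 CPM (-3.31 ± 0.15, adjusted p = 5.33e-05). Its level was above 140 CPM in every wt and cis library and below 37 in every cis SSP library. MSMO1 was at 155, 145 and 145 and 35.6, 33.9 and 34.01 CPM in complete medium (-2.08 ± 0.094, adjusted p = 5.66e-05), and SQLE at 269, 264 and 272 and 91.4, 84.8 and 86.8 (-1.59 ± 0.091, adjusted p = 0.000122). CYP51A1 was at 14.1, 14.6 and 11 and 2.26, 7.06 and 5.92 CPM (-1.34 ± 0.38), with the lowest value in library 25. HSD17B7 (-1.30), DHCR7 (-1.27), SC5D (-1.22), NPC1 (-1.17) and ACAT2 (-1.06) were also lower by at least 2-fold. NPC1 was at 34.8 CPM in library 25 against 56.8 and 55.4 in the other libraries of cis SSP. Without libraries 25 and 32, NPC1 and CYP51A1 were lower by less than 2-fold, and MVD by at least 2-fold. HMGCS1 (-0.80 ± 0.14), INSIG1 (-0.80 ± 0.086) and SREBF2 (-0.56 ± 0.14) were lower by less. SREBF1 was higher, at 204, 195 and 195 CPM against 142, 142 and 129 (0.55 ± 0.096, adjusted p = 0.00755). PMVK was also called higher (0.94 ± 0.28, adjusted p = 0.0498), but library 25 was at 97.4 CPM against 48.4 and 48.6 in the other libraries of cis SSP, and without libraries 25 and 32 the difference was 0.54 ± 0.056.

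**Figure D5:**
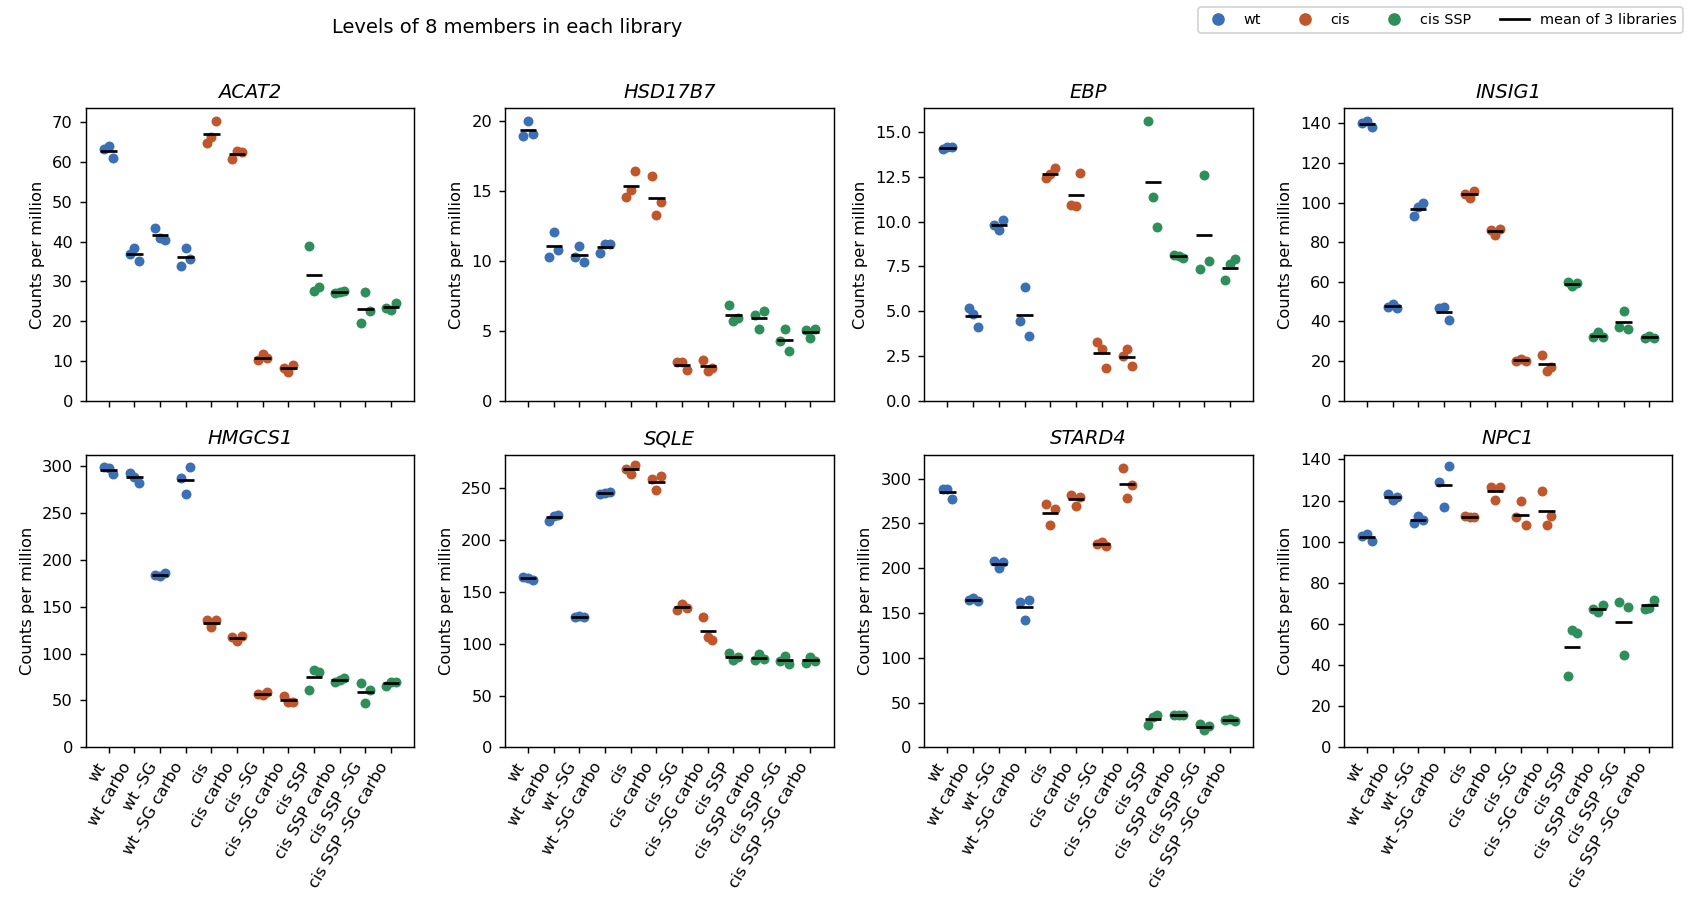
Level of 8 members in CPM, with a point for each of the 36 libraries and a bar for the mean of the 3 libraries of a condition. ACAT2, HSD17B7, EBP and INSIG1 are lowest in deprived cis cells, SQLE and HMGCS1 rise again in deprived wt cells with carboplatin, and STARD4 lies below 37 in every cis SSP library.

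In deprived medium the order of cis and cis SSP cells turned for part of the list. HSD17B7, ACAT2, INSIG1, IDI1, FDPS and FDFT1 were called lower in cis SSP in complete medium and higher in deprived medium, with all libraries. PMVK and SREBF1 were called higher in both media, and EBP and MVK were not called in complete medium with all libraries. With all libraries 13 members were higher in cis SSP than in cis and 8 lower, against 21.6% and 23.2% of all genes, and without libraries 25 and 32, 19 were higher and 8 lower, against 37% and 38.5%. The count of 21 called members became 15 without the second library of cis -SG and 27 without library 32. EBP was at 3.26, 2.90 and 1.84 CPM in cis -SG and 7.34, 12.6 and 7.80 in cis SSP -SG (1.78 ± 0.30, adjusted p = 0.00476). ACAT2 was at 10.2, 11.7 and 10.7 and 19.4, 27.4 and 22.7 CPM (1.08 ± 0.15). INSIG1 was at 20.2, 21.1 and 19.8 and 37.3, 45.3 and 36.2 CPM (0.95 ± 0.12). Every cis SSP -SG library was above every cis -SG library in these 3 genes. MVK (1.04), PMVK (1.28) and SREBF1 (0.54) were also higher, PMVK with 93.1 CPM in library 32 against 40.8 and 41.9 in the others. Lower than in cis were, beside STARD4, MYLIP (-1.58 ± 0.17), NPC1 (-0.89 ± 0.18), CYP51A1 (-0.89 ± 0.20), MSMO1, SC5D and GGPS1, and SQLE at 83.6, 87.9 and 80.5 against 133, 138 and 134 CPM (-0.69 ± 0.088). HMGCS1 (0.03 ± 0.15) and SREBF2 (0.10 ± 0.13) were not called.

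Levels of the members not yet given are means of the 3 libraries of a condition ± SD, at their lowest and their highest over the 12 conditions. FDFT1 ran from 120.1 ± 9.11 CPM in cis -SG carbo to 364 ± 6.60 in wt, and DHCR7 from 61.3 ± 5.24 CPM in cis -SG carbo to 232 ± 3.03 in cis. TM7SF2 ran from 14.3 ± 1.39 CPM in cis -SG carbo to 26.1 ± 2.49 in cis carbo and SC5D from 22.5 ± 1.18 CPM in cis SSP to 53.95 ± 0.746 in cis carbo. Of these 4 enzymes, SC5D had its lowest level outside the deprived cis conditions. SCAP stayed within the narrowest span of the regulators, from 96.5 ± 9.29 CPM in cis -SG carbo to 155 ± 1.36 in wt -SG. SOAT1 ran from 138 ± 7.62 CPM in cis -SG carbo to 244 ± 5.61 in cis, NPC2 from 18.7 ± 1.17 CPM in cis -SG to 49.99 ± 1.71 in wt -SG and LPIN1 from 47.4 ± 1.10 CPM in cis -SG to 109 ± 0.831 in wt -SG.

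Other genes of sterol and lipid metabolism were counted beside the members. A further list held SREBP target genes, most but not all of them of fatty acid metabolism. Of these, 10 of 10 tested fell in deprived cis cells and none rose, against 37.4% and 37.6% of all genes. Among them were PNPLA3, a lipase of lipid droplets (-1.72 ± 0.11), and ACSS2, an acetyl-CoA synthetase, at 66.05, 62.2 and 62.3 CPM in complete medium and 25.2, 26.8 and 25.2 when deprived (-1.27 ± 0.051). In deprived wt cells 5 of 11 fell and 2 rose, against 25.1% and 24.1% of all genes, with ACSS2 at -0.49 and SCD, the stearoyl-CoA desaturase, at 0.41 on the log2 scale. Under carboplatin in wt cells 7 of 11 fell and 3 rose, against 39% and 38.9%, with ELOVL6, a fatty acid elongase, at -1.54 and TMEM97, a sterol-binding membrane protein, at 0.95. In cis against wt cells 7 of 11 were lower and 2 higher, against 39.1% and 39.4% of all genes, with a median of -0.49. The 2 higher were ACLY (0.20) and SCD (0.11). The largest differences were those of FADS2 and ME1. FADS2, a fatty acid desaturase, was at 22.5, 23 and 25.3 CPM in cis against 592, 620.1 and 596 in wt cells (-4.70 ± 0.034). ME1, the cytosolic malic enzyme, was at 24.7, 26.1 and 25.6 CPM in wt cells and had 0 counts in each of the cis libraries.

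Among 17 other sterol genes the counts were mixed. In deprived cis cells 5 of 14 tested rose and 6 fell, against 37.6% and 37.4% of all genes. LBR, a sterol reductase of the nuclear envelope, fell (-1.06 ± 0.031), whereas ABCA1, the cholesterol exporter, rose from 3.76, 4.22 and 3.95 to 9.87, 7.55 and 8.51 (1.14 ± 0.13). In wt cells under carboplatin 8 of 16 rose and 7 fell, against 38.9% and 39% of all genes, shares not far from those of the list. LIPA, the lysosomal acid lipase, rose from 577, 617 and 594 to 2019, 2032 and 2027 CPM and ABCA1 from 36.4, 38.1 and 39.2 to 110, 104 and 106. In cis SSP against cis cells in complete medium 4 of 15 were higher and 3 lower, against 15.8% and 13.3% of all genes. Without libraries 25 and 32 these were 7 and 7, against 32.9% and 32.5%. LIPA was lower in cis SSP than in cis cells, at 132, 161 and 162 against 1607, 1566 and 1656 CPM (-3.38 ± 0.14). ABCA1 was at 9.55, 35.2 and 33.7 CPM in cis SSP cells, of which the low first value is that of library 25. In the isoprenoid branch, which makes ubiquinone, dolichol and prenylated proteins, 4 of 12 genes rose and 5 fell in deprived cis cells, again against 37.6% and 37.4%, with a median of -0.011, against -1.79 for the mevalonate arm.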

How the data were processed

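RNA was sequenced from 36 libraries of A2780 cells and derivatives, 3 for each of 12 conditions. Per the methods of the study, total RNA libraries (SENSE kit) were read single-end, aligned with STAR to GRCh37.p13 and counted on exons of GENCODE genes with HTSeq; the authors deposited these counts as 1 raw count table, with no normalisation. Whether the counting used strand is not given in the sources used here. The 3 rows that name no gene were left out of library sizes and tests; they include reads on no feature, at 4.21% to 17.9% per library. Symbols came from GENCODE 44, which named 55538 of the 57820 gene rows. Totals of 13074937 to 20441582 counts per library set the precision, and any interval given covers counting error only.

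Each comparison was fitted to its own conditions with edgeR 4.0.16 (TMM, filterByExpr, robust quasi-likelihood test), with Benjamini-Hochberg adjustment over all genes tested and an adjusted p under 0.05 as the threshold; interactions were tested in the 4 conditions concerned. MYLIP did not pass the filter in wt alone. CPM used the total counts on genes, adjusted by TMM factors over all libraries, and, per kb, the length of merged exons. The steps were tested on simulated data. Alternatives were DESeq2 1.42.0, other scalings and filters, 1 fit over all libraries, and libraries left out. Libraries were grouped by the labels. Every member is named. By rule, full values went, in each comparison, to called members without overlap between groups, at a mean of at least 50 counts and with the largest change (at most 4 in each direction), and to HMGCS1, SQLE, INSIG1, SREBF1 and SREBF2. Some members outside this rule, such as FDPS and NPC1 for deprivation in cis, were given values as well. The members, lists, alternatives and libraries set aside were chosen with earlier results of these data known. Promoter letters came from RefSeq on GRCh38.p14. Some genes of the pathway are not reported here. R 4.3.3 and Python 3.11.15 were used.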

Additional observations from a re-analysis of the deposited data

Results flagged for a closer look

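Results are listed here because the response of a gene differed between cell forms or media by a test of the difference itself, the interaction in the quasi-likelihood test of edgeR. The response to carboplatin differed between cis and wt cells for 22 of the 29 members tested, against 57.6% of all genes, with EBP at 1.45 on the log2 scale. That to serine/glycine deprivation differed between cis and wt cells for 24 of 29 members, against 54% of all genes, with ACAT2 at -2.01. In both tests MYLIP was among the 29 only through its level in cis cells. Between cis SSP and cis cells the response to deprivation differed for 18 of 29 members, against 17.1%, with ACAT2 at 2.15, a comparison that holds libraries 25 and 32. The response to carboplatin differed between deprived and complete medium for 18 of 28 members in wt cells, against 27.7%, with HSD17B7 at 0.89. In cis cells it differed for 4 of 29 members, a share near the 12.1% of all genes, with NPC2 at 0.55. In data outside the gene counts, 17.9% of reads in library 23 and 14.9% in library 24, both of cis -SG carbo, fell on no annotated feature, above the level in every other library, untreated ones included.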

How the results depend on the processing

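No paired analysis was possible because the labels give the libraries no replicate numbers shared between conditions. Counts of called members kept within 1.5 times their main value under the other scalings, filters and tools, apart from the following. With 1 fit over all 36 libraries the counts were 2 for carboplatin in cis, 10 for carboplatin in cis SSP, 13 for deprivation in wt, 14 for deprivation in cis SSP, 2 and 8 for carboplatin in deprived cis and deprived cis SSP, and 11 and 1 for the interaction of deprivation and carboplatin in wt and in cis. DESeq2 called 2 in deprived cis SSP under carboplatin. Without libraries 25 and 32 the counts were 17 for carboplatin in cis SSP, 22 for deprivation in cis SSP and 12 for carboplatin in deprived cis SSP.

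Leaving out 1 library at a time gave 11 to 26 called members for cis SSP against cis, 5 to 9 and 0 to 17 for carboplatin in cis and cis SSP, 3 to 8 and 0 to 12 in the same forms when deprived, 15 to 27 for cis SSP against cis when deprived, and 3 to 9 for the interaction in cis. Counting only members called in the main fit or in the alternative, the sign turned in 3 cases, each without the library that stood apart. NPC2 and SOAT1 turned in cis SSP against cis, without library 25, at -0.28 and 0.10. MVD turned under carboplatin in deprived cis SSP, without library 32, at 0.47. With each library left out in turn these 3 ran from -0.28 to 0.17, from -0.066 to 0.10 and from -0.29 to 0.47. None of the 3 was called with all libraries, and the cause was not tested. The split of higher and lower calls moved under another scaling or tool to 1 and 4 (DESeq2) for carboplatin in cis, to 5 and 2 (total counts) or 3 and 1 (DESeq2) for carboplatin in deprived cis, and to 4 and 1 (DESeq2 size factors) for the interaction in cis. The median of all genes shifted by more than 0.1 in 1 case, by -0.11 with total counts in the interaction of cis SSP and deprivation. Of the values for single members, 3745 kept their call with 1 library left out, 80 gained it and 144 lost it. Under the other alternatives these were 3088, 140 and 105. Members called in both fits kept their direction, and the sign was not compared where neither fit called a member.

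The libraries were technical replicates of 1 line of each form, so the errors do not cover differences between cultures or between independently derived resistant lines. Depth limited MYLIP in wt cells and, in deprived cis cells, HSD17B7 and EBP.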
